A study of Mus musculus with 4 samples.

Results

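Immune checkpoint genes encode the surface ligands and receptors through which tissue cells, tumour cells and immune cells restrain lymphocytes. The set described here held 10 genes, taken by symbol: the B7 family genes Cd276, Cd274, Pdcd1lg2, Vtcn1 and Vsir, and the receptor genes Pdcd1, Ctla4, Lag3, Havcr2 and Tigit. Each of the 10 symbols was found once among the 56748 genes of the count table, and all 10 had enough reads to be among the 15167 genes tested.

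The RNA came from lungs of female BALB/cJ mice that carried metastases of triple-negative breast cancer (TNBC), formed by 4T1-FLuc cells, a mouse TNBC line with a luciferase reporter, given through the tail vein. The control group, called saline here, held 2 libraries. The cmLumiOpto/PARPi group held 2 libraries from mice treated for 3 weeks with an adeno-associated virus enclosed in exosomes that display a monoclonal antibody to CD276 (CD276 mAb-Exo-AAV), with ViviRen, the substrate of its luciferase, and with olaparib, an inhibitor of poly (ADP-ribose) polymerase. The viral gene cmLumiOpto joins that luciferase to the light-gated channel CoChR under a cfos promoter and directs the channel to mitochondria. Libraries of mice given 1 agent were not analysed here, so the effects of the antibody, the vector and olaparib cannot be told apart. The sample labels name the control as PBS and the material as tumour cells, while the methods of the study name saline and whole lung tissue with metastases. Epcam and Krt8, epithelial genes also expressed by 4T1 cells, were at 148.8 to 180.5 and 997.8 to 1640 CPM, counts scaled to a common library size. Sftpc, the surfactant gene of alveolar type 2 cells, was at 176.1 to 6153 CPM and Ptprc, the pan-leukocyte gene CD45, at 48.4 to 116.2 CPM, so none of the 4 libraries held tumour RNA alone.

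T cells integrate an antigen signal with costimulatory and coinhibitory signals. PD-1, encoded by Pdcd1, is engaged by PD-L1 (Cd274) and PD-L2 (Pdcd1lg2), and CTLA-4 (Ctla4) competes with CD28 for CD80 and CD86. LAG-3, TIM-3 (Havcr2) and TIGIT accumulate on T cells after prolonged stimulation, TIM-3 is also made by macrophages and dendritic cells, and TIGIT also by NK cells. CD276, or B7-H3, is a B7 protein of many tumours, of fibroblasts and of tumour vessels, and is the surface target of the antibody used in this treatment. B7-H4 (Vtcn1) is an epithelial B7 protein, and VISTA (Vsir) is mostly myeloid.

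The gene counts summed to between 15263375 and 16755228 per library, so the detection floor of 3 counts lay at 0.179 to 0.197 CPM. The floor covers counting error only. Between the groups, 0% of tested genes passed an adjusted p of 0.05 (edgeR quasi-likelihood test, Benjamini-Hochberg adjusted), 21.2% had an unadjusted p under 0.05, and 981 passed with DESeq2. Lung composition differed between the libraries. The summed CPM of 5 airway genes was 1153 and 81.2 with saline and 5690 and 2992 after treatment, and that of 10 fibroblast and pericyte genes was 5315 and 3750 against 1818 and 2006, values of a group being given here and below in the order of replicates 1 and 2. Longer genes had lower log2 fold changes, with a median of 0.31 in the shortest of 5 classes of gene length, which held 3 checkpoint genes, and -0.27 in the longest, which held 0. Nothing in the labels says that libraries of a group came from separate cages or days, and with 2 libraries per group an exact permutation test over libraries cannot give a two-sided p under 0.333.

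Levels were compared between genes as RPKM, the CPM divided by gene length in kilobases. Cd276 and Vsir were the most abundant of the 10 genes, with a mean over the 4 libraries of 25.5 RPKM for Cd276 and 25.3 RPKM for Vsir, and their ranges overlapped, at 20.98 to 29.98 for Cd276 and 21.7 to 29.2 for Vsir. Tigit followed with a mean of 16.8 RPKM, every library of Vsir being above every library of Tigit. Tigit in turn stood above Pdcd1 in every library, with a lowest value of 12.9 RPKM against a highest of 11.5 RPKM for Pdcd1. The middle of the order was not resolved by these libraries. Mean levels were 7.67 RPKM for Pdcd1, 7.38 for Cd274, 5.98 for Havcr2 and 3.58 for Lag3, and the ranges of neighbours in this order overlapped. The least abundant genes were Pdcd1lg2 with a mean of 1.32 RPKM, Ctla4 with 1.05 RPKM and Vtcn1 with 0.653 RPKM, again with overlapping ranges.

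**Figure D1:**
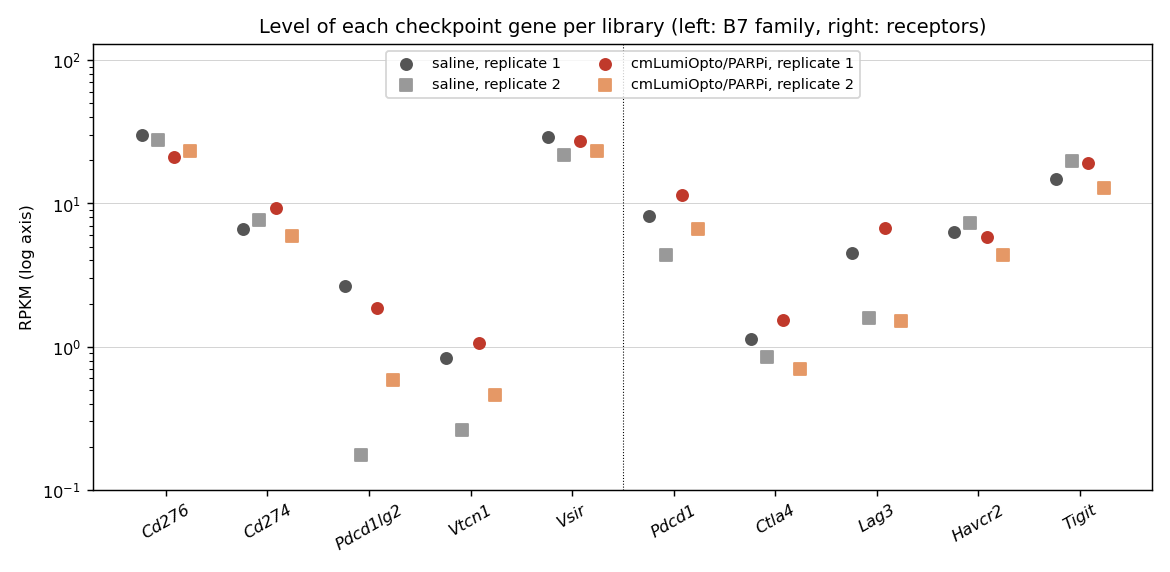
Level of each of the 10 checkpoint genes in RPKM on a log axis, 1 point per library, with the B7 family on the left and the receptors on the right. Both treated points of Cd276 sit below both saline points, and in Pdcd1lg2, Vtcn1 and Lag3 the 2 libraries of a group lie several-fold apart.

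The PD-1 receptor and its ligand PD-L1 thus had transcript levels that did not differ beyond their spread, while those of the other ligand, PD-L2, were lower than PD-L1 in every library. Tigit was at 14.9 and 19.95 RPKM with saline and at 19.2 and 12.9 RPKM after treatment, where Cd3d, Cd3e and Cd3g, subunits of the CD3 complex, summed to 4.93 and 1.51 RPKM and to 13.4 and 4.05 RPKM. Tigit was thus above the sum of these 3 CD3 genes per length in every library, though in CPM it was below their sum in saline replicate 1 and in cmLumiOpto/PARPi replicate 1. Tigit is the shortest of the 10 genes, with 919 bases in the table, and the RPKM scale divides by that length.

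No checkpoint gene passed the test between cmLumiOpto/PARPi and saline, and 5 of the 10 had higher and 5 lower fitted levels after treatment, beside 52% of all tested genes with higher ones. The median log2 fold change of the 10 genes was 0.04, against 0.02 over all tested genes, and the median size of the change was 0.30 against 0.33. In 2 of the 10, Cd276 and Havcr2, the groups did not overlap, both times with the treated libraries below, whereas 55.2% of all tested genes had groups that did not overlap. An unadjusted p under 0.05 was reached by 1 of the 10, Cd276, with lower levels, and by 0 with higher levels, where 12% and 9.21% of all tested genes did so. The 10 genes held 0 calls under the other tests too, where DESeq2 called 6.47% of all genes, the exact test of edgeR 5.37%, its likelihood ratio test 5.7%, the fit without a filter on low counts 7.86% and the fit blocked on replicate number 12%. The share of 20% without overlap is a description for which no test was made. Without saline replicate 1 or cmLumiOpto/PARPi replicate 2 the groups did not overlap in 7 of 10, without saline replicate 2 in 4 and without cmLumiOpto/PARPi replicate 1 in 6, beside 80.4%, 81.7%, 74% and 74.3% of all tested genes.

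**Figure D2:**
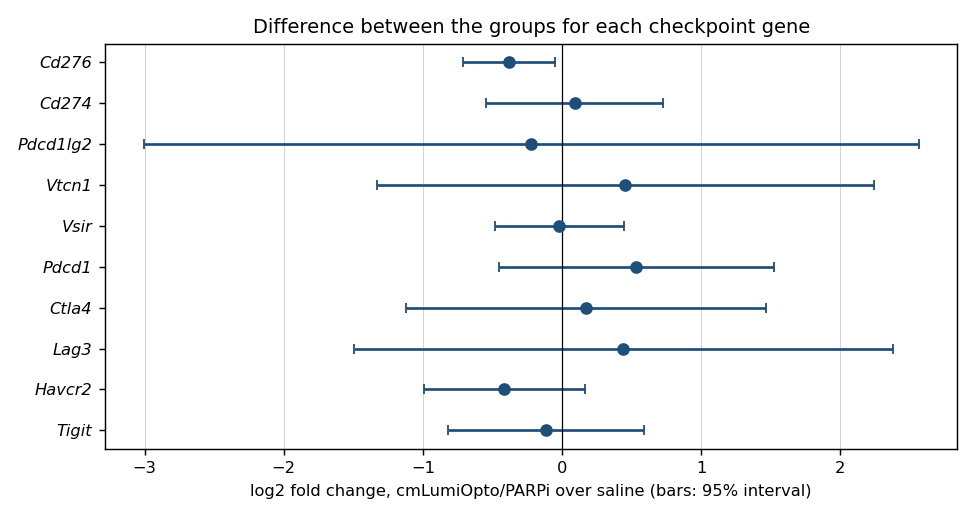
Log2 fold change of cmLumiOpto/PARPi over saline for each of the 10 genes with its 95% interval from edgeR's quasi-likelihood fit (2 libraries per group). The interval of Cd276, from -0.71 to -0.05, is the only one of the 10 that does not include 0, before adjustment for the number of genes tested, and those of Pdcd1lg2, Lag3 and Vtcn1 are the widest.

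Cd276 encodes the protein to which the vector's antibody binds. It was at 109.7 and 101.1 CPM with saline and at 76.7 and 85.4 CPM after treatment. Both treated libraries lay below both saline libraries, and the libraries of a group differed by only 1.09-fold and 1.11-fold. The means were 105.4 ± 6.10 CPM (SD, n = 2) with saline and 81.1 ± 6.11 CPM (SD, n = 2) with cmLumiOpto/PARPi, a ratio of 0.769 with a 95% interval of 0.612 to 0.967. The log2 fold change of -0.38 (standard error 0.13) had an unadjusted p of 0.0313 and an adjusted p of 0.201 in the edgeR quasi-likelihood test, Benjamini-Hochberg adjusted, so the difference did not pass. With each library left out in turn the log2 fold change of Cd276 was between -0.48 and -0.30.

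In the positions of the table, which the submitters' notes give as mm39, Cd276 (ENSMUSG00000035914) lies on the minus strand at chr9:58431581-58462720 and overlaps the opposite-strand gene Gm10657 over 639 bases. Gm10657 had 0 to 8 counts against 1333 to 1749 for Cd276, so shared reads could move Cd276 little.

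Cd276 is made by stromal as well as tumour cells, and most fibroblast and pericyte genes were lower after treatment too. Among the 10 fibroblast and pericyte markers, 9 had lower fitted levels and 1 a higher one, with a median log2 fold change of -0.70, and none was at 0 in every library. Col1a1, the main fibrillar collagen gene, was at 2064 and 1377 CPM with saline and at 454.7 and 572 CPM after treatment. Pdgfrb, a pericyte and fibroblast receptor gene, was at 79.6 and 78.6 CPM against 48.4 and 50.1 CPM. Its relative Pdgfra was at 211.8 and 242.9 CPM against 132.4 and 144.4 CPM. The 1 gene in the other direction was Rgs5, a pericyte gene, at 7.71 and 4.497 CPM against 13.7 and 11.2 CPM. The collagen and receptor genes, like Cd276, were lower in both treated libraries than in both saline libraries. As a sum, the epithelial genes did not separate the groups in the same way. Of these genes 1, Krt14, was lower in both treated libraries, at 54.1 and 44.0 CPM with saline and 42.9 and 43.6 CPM after treatment. The summed CPM of the 7 tumour and airway epithelial markers was 3011 and 3390 with saline and 2690 and 3849 after treatment, with a median log2 fold change of 0.07. Of 6 endothelial markers, 5 had higher and 1 lower fitted levels, with a median log2 fold change of 0.42. Their summed CPM was 471.5 and 383.8 with saline and 665 and 382.2 after treatment. Per summed fibroblast and pericyte CPM, Cd276 was 0.0206 and 0.0270 with saline and 0.0422 and 0.0426 after treatment, 1.80-fold higher. The sum was carried by Col1a1, Col1a2 and Col3a1, with 77.4% to 88.8% of it in each library. Per CPM of Pdgfrb alone, a denominator chosen after the values were seen, Cd276 was 1.38 and 1.29 against 1.59 and 1.70, 1.24-fold higher. Per summed epithelial CPM it was 0.0364 and 0.0298 against 0.0285 and 0.0222, a ratio of 0.763. The largest terms of that sum were Krt8 and Krt18. Krt8 was at 1144 and 1560 CPM with saline and at 997.8 and 1640 CPM after treatment. Krt18 was at 909.1 and 1016 against 739.7 and 1261 CPM. No single epithelial gene was tried as denominator. Neither of the ratios to the lists overlapped between the groups, and each gave the smallest p that an exact two-sided permutation test allows, 0.333 (0.417 adjusted over the 10 ratios computed). In bulk tissue, fewer cells of a type and less RNA per cell cannot be told apart, and the part of the stromal cells in the lower Cd276 level was not tested.

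**Figure D3:**
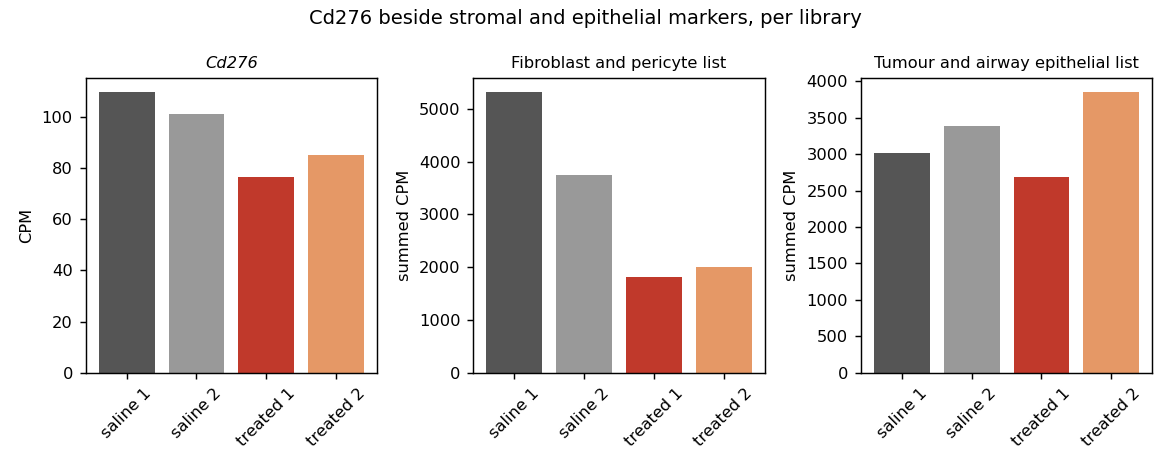
CPM of Cd276 (left), summed CPM of 10 fibroblast and pericyte genes (middle) and summed CPM of 7 tumour and airway epithelial genes (right), 1 bar per library from 0. Both treated bars are below both saline bars for Cd276 and for the stromal sum, from 5315 and 3750 to 1818 and 2006 CPM, whereas the epithelial sums of the 2 groups overlap.

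The genes whose profile over the 4 libraries was most like that of Cd276 were Bms1, a ribosome assembly gene, Gaa, the lysosomal acid alpha-glucosidase, and Sec61a1, a subunit of the translocation channel of the endoplasmic reticulum. Their root mean square distances in log2 CPM, after centring each gene, were 0.011, 0.0113 and 0.0122, where the median of 13441 protein-coding genes was 0.297. With 4 libraries such closeness is a description.

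Cd274, the gene for PD-L1, was at 24.2 and 27.6 CPM with saline and at 33.9 and 21.3 CPM after treatment. Treated replicate 1 was the highest and treated replicate 2 the lowest of the 4 libraries, so the groups overlapped completely. The log2 fold change was 0.09 with a 95% interval of -0.55 to 0.73 (adjusted p = 0.865, edgeR quasi-likelihood test, Benjamini-Hochberg adjusted). It was -0.28 without cmLumiOpto/PARPi replicate 1 and -0.02 without saline replicate 1. Per CPM of Ptprc, Cd274 was 0.345 and 0.570 with saline and 0.291 and 0.332 after treatment, a ratio of 0.701. With 1 library left out the log2 difference was -0.87 to -0.15. These ratios did not overlap (exact permutation p = 0.333), but with the summed macrophage and dendritic markers in place of Ptprc they did. Ptprc itself had a higher fitted level after treatment, so a gene of unchanged CPM would also be lower per Ptprc. Cd274 (ENSMUSG00000016496, chr19:29344855-29365495, plus strand) overlaps the minus-strand noncoding gene Gm36043 over 11055 bases, which had 4 to 21 counts against 354 to 588 for Cd274. The minus-strand gene Plgrkt lies 65 bases from Cd274 without overlapping it and had 433 to 615 counts. Whether reads were shared was not tested.

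Pdcd1lg2, the gene for PD-L2, lies next to Cd274 at chr19:29388319-29448561 (ENSMUSG00000016498, plus strand). It was at 5.21 and 0.341 CPM with saline and at 3.63 and 1.14 CPM after treatment. Saline replicate 2 stood apart with 5 counts, close to the floor of 3, against 83 counts in saline replicate 1. The 15.3-fold gap between the 2 saline libraries was the widest within a group among the 10 genes. The log2 fold change of -0.22 accordingly had a 95% interval from -3.01 to 2.57, and it was 2.77 without saline replicate 1 and 0.35 without cmLumiOpto/PARPi replicate 2. A difference in PD-L2 transcripts was not detectable with this spread. Over 6412 bases the gene overlaps the minus-strand noncoding gene A930007I19Rik, whose 65, 68, 61 and 108 counts were of the same order as those of Pdcd1lg2, and whether the counting used strand is not given in the sources used here, so its counts are uncertain.

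Vtcn1 (ENSMUSG00000051076, chr3:100732775-100804238, plus strand), the gene for B7-H4, was the scarcest of the 10 genes per length. It was at 2.20 and 0.681 CPM with saline and at 2.76 and 1.20 CPM after treatment, from 10 to 48 counts. The groups overlapped, with a log2 fold change of 0.46 and a 95% interval of -1.33 to 2.25, and the value was -0.27 without cmLumiOpto/PARPi replicate 1 and -0.16 without saline replicate 2.

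Vsir, the gene for VISTA, was abundant and differed little between the groups. It was at 146.6 and 109.0 CPM with saline and at 136.5 and 115.9 CPM after treatment, and both treated values lay between the saline values. The log2 fold change of -0.02 had a 95% interval of -0.48 to 0.45, which in folds leaves room for changes in either direction of about the size seen in Cd276. Leaving out saline replicate 1 gave 0.20 and leaving out cmLumiOpto/PARPi replicate 2 gave 0.07. Ptprc, in contrast, had a log2 fold change of 0.61, and per CPM of Ptprc Vsir was 2.09 and 2.25 with saline and 1.18 and 1.81 after treatment. The ratio to Ptprc was 0.672-fold of that with saline, -0.88 to -0.26 on the log2 scale with 1 library left out. It did not overlap between groups (exact permutation p = 0.333), while per summed macrophage and dendritic CPM the groups overlapped. Given the higher Ptprc level, a gene of unchanged CPM would also be lower per Ptprc. Vsir (ENSMUSG00000020101, chr10:60182630-60208463, plus strand) lies wholly within the minus-strand gene Cdh23, a cadherin of the inner ear, which had 12 to 28 counts against 1599 to 2371 for Vsir.

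Of the 5 receptors, 3 had higher and 2 lower fitted levels after treatment. Pdcd1, the gene for PD-1 (ENSMUSG00000026285, chr1:93966027-93980278, minus strand), was at 15.7 and 8.45 CPM with saline and at 22.2 and 12.9 CPM after treatment. Its log2 fold change of 0.54, the highest of the 10 genes, did not pass and had a 95% interval of -0.45 to 1.52 (adjusted p = 0.472, edgeR quasi-likelihood test, Benjamini-Hochberg adjusted). Treated replicate 2 lay below saline replicate 1, so the groups overlapped. With each library left out the value stayed above 0, from 0.09 to 1.04.

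Ctla4 (ENSMUSG00000026011, chr1:60926159-60954991, plus strand), the gene for the receptor that competes with CD28, was at 2.63 and 1.98 CPM with saline and at 3.57 and 1.63 CPM after treatment. The treated libraries were the highest and the lowest of the 4. The log2 fold change was 0.17 with a 95% interval of -1.12 to 1.47, and it was -0.51 without cmLumiOpto/PARPi replicate 1 and -0.04 without saline replicate 2. The pseudogene Rpl18-ps1 overlaps Ctla4 on the same strand over 525 bases and had 5 to 15 counts against 27 to 62 for Ctla4, so part of the Ctla4 reads could be shared.

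Lag3, the gene for a receptor of MHC class II (ENSMUSG00000030124, chr6:124881324-124888668, minus strand), was at 9.47 and 3.34 CPM with saline and at 14.2 and 3.19 CPM after treatment. Replicate 1 was several-fold above replicate 2 in both groups, by 2.84-fold and 4.46-fold, and the log2 fold change of 0.44 had a 95% interval of -1.50 to 2.38. It was -1.01 without cmLumiOpto/PARPi replicate 1 and -0.14 without saline replicate 2. The gene Ptms lies 1976 bases from Lag3 on the same strand and had 4964 to 6697 counts, against 49 to 247 for Lag3. Whether reads were shared was not tested.

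Tigit (ENSMUSG00000071552, chr16:43469230-43484509, minus strand), the gene for a receptor of the poliovirus receptor shared by T and NK cells, was at 13.7 and 18.3 CPM with saline and at 17.7 and 11.9 CPM after treatment. The groups overlapped, with a log2 fold change of -0.12 and a 95% interval of -0.82 to 0.59. Leaving out cmLumiOpto/PARPi replicate 2 turned the value to 0.12 and leaving out saline replicate 2 turned it to 0.09.

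Havcr2 (ENSMUSG00000020399, chr11:46345762-46372082, plus strand), the gene for TIM-3, was at 17.3 and 19.97 CPM with saline and at 15.95 and 11.97 CPM after treatment. Both treated libraries lay below both saline libraries, as in Cd276, though the nearest values of the groups were close to each other. The means were 18.6 ± 1.92 CPM (SD, n = 2) and 13.96 ± 2.81 CPM (SD, n = 2), a ratio of 0.751. The log2 fold change was -0.41 (standard error 0.23) with a 95% interval of -0.99 to 0.17, and it did not pass (adjusted p = 0.356, edgeR quasi-likelihood test, Benjamini-Hochberg adjusted). It kept its sign in all 16 alternatives, from -0.64 to -0.24. The sequence before its start is shown because Havcr2 was the receptor whose groups did not overlap. It gives the 250 bases upstream of the RefSeq start on GRCm38.p6, chr11:46454681-46454930, plus strand, 5′ to 3′, with capitals marking a match to the AP-1 type motif TGANTCA.
Havcr2: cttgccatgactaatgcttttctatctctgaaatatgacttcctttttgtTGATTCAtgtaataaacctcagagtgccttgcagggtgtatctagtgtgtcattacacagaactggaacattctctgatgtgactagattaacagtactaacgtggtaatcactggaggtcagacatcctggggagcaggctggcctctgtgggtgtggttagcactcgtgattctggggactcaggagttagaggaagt
The match lies 200 to 194 bases before the start. Of 32851 RefSeq promoters of the same length, 6.75% held this motif on either strand. The other motifs searched, also on both strands, were the STAT element TTCNNNGAA, the GC box GGGCGG and the TATAAA letters, and none of them was found in this window. Among the 9 checkpoint genes with a RefSeq window, those of Cd276, Cd274, Vsir and Pdcd1 held a GC box, found in 32.7% of all promoters. Other annotation places 2 of these windows inside their gene: in GENCODE M21 the Cd276 gene starts 404 bases further upstream, so that the window lies in an exon, and the Ctla4 gene 22025 bases further upstream. None of the 9 held the STAT element or the TATAAA letters. A match is a description of letters only.

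Receptor transcripts were also set against the T cells that carry them. The summed CPM of Cd3d, Cd3e and Cd3g was 14.4 and 4.57 with saline and 36.2 and 10.5 after treatment, and these groups overlapped. All 14 genes of the T cell list had higher fitted levels after treatment, with a median log2 fold change of 0.94, 0 of them past the threshold and none at 0 in every library. Their summed CPM was 80.3 and 30.6 with saline and 173.5 and 54.3 after treatment. Groups did not overlap in 3 of the 14, or 21.4%, all with the treated libraries above, beside 55.2% and 27.4% of all tested genes. After correction for gene length and mean expression the median of the list was 0.67. With the replicate block 5 of the 14 passed, beside 12% of all tested genes. Foxp3, which marks regulatory T cells, was at 1.07 and 0.273 CPM against 2.71 and 0.782 CPM. The NK cell list summed to 27.3 and 18.4 CPM with saline and to 63.3 and 12.3 CPM after treatment. T cell transcripts were thus highest in treated replicate 1 and lowest in saline replicate 2, as Pdcd1 was.

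Per summed CD3 CPM, the receptor genes had lower means in the treated libraries, in contrast to the mixed directions of their levels. The CD3 sum itself had a higher mean after treatment, so a gene of unchanged CPM would also be lower per CD3. Lag3 was 0.657 and 0.731 per CD3 with saline and 0.393 and 0.305 after treatment, a ratio of 0.499. It was the only one of the 5 receptors whose values lay closer together per CD3, spanning 2.40-fold over the 4 libraries, than in CPM, where they spanned 4.46-fold. Ctla4 was 0.183 and 0.433 per CD3 with saline and 0.0986 and 0.155 after treatment, a ratio of 0.440 without overlap. Havcr2 was 1.20 and 4.37 against 0.440 and 1.14, also without overlap, but per CD3 it spanned 9.93-fold and in CPM 1.67-fold. Pdcd1 was 1.09 and 1.85 against 0.614 and 1.23, and Tigit 0.952 and 4.02 against 0.488 and 1.13, and in these genes the groups overlapped. The CD3 genes did not rise alike, with log2 fold changes of 1.83 for Cd3d, 1.496 for Cd3g and 0.42 for Cd3e. Cd3e was at 5.205 and 1.704 CPM with saline and at 6.736 and 2.527 CPM after treatment, and these groups overlapped. With Cd3e alone as denominator, chosen after the values were seen, the groups of Lag3, Ctla4 and Havcr2 would overlap too. Their lack of overlap per CD3 thus depended on Cd3d and Cd3g. Of all 10 ratios computed, 8 did not overlap between groups. Each of those had an exact two-sided permutation p of 0.333 (0.417 adjusted), the smallest 2 libraries against 2 can give. The share of all tested genes that would lack overlap in such ratios was not computed. Ratios that share a denominator move together, and of the 8 ratios to CD3 or Ptprc, 6 had no overlap. With the whole T cell list, or the macrophage and dendritic list, in their place, 3 of these 8 had none: Ctla4 and Lag3 per T cell list and Havcr2 per macrophage and dendritic list. The sizes depended on single libraries: the log2 difference per CD3 was -1.81 without saline replicate 1 and -0.56 without saline replicate 2 for Ctla4, and -2.62 and -0.75 for Havcr2. With any 1 library left out it was between -1.19 and -0.82 for Lag3, -1.21 and -0.21 for Pdcd1, and -2.43 and -0.36 for Tigit.

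**Figure D4:**
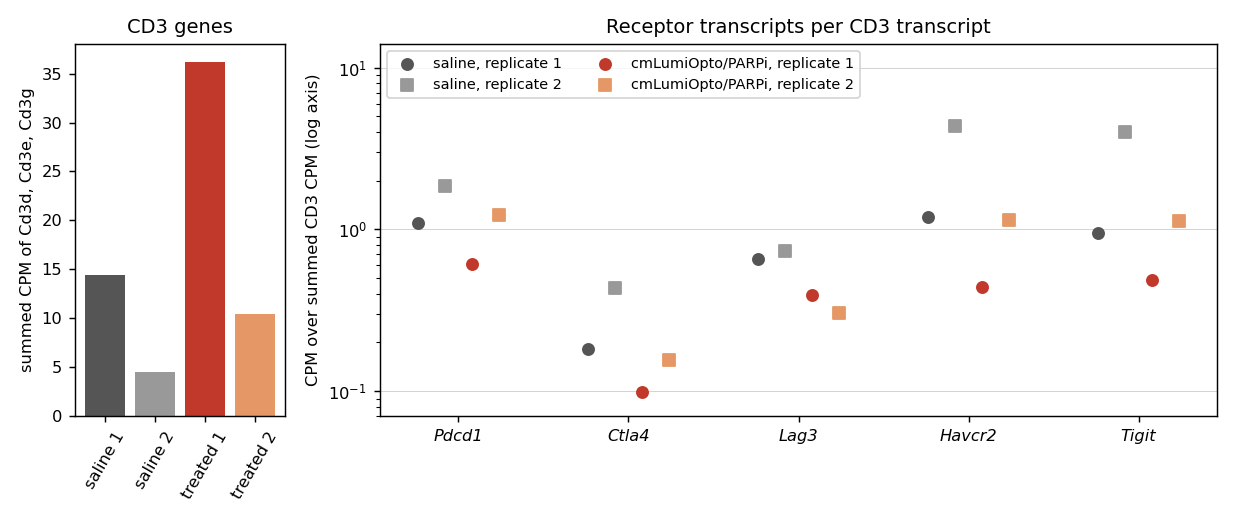
Summed CPM of the CD3 genes per library (left, bars from 0) and CPM of each receptor divided by that sum (right, log axis, 1 point per library). CD3 is highest in treated replicate 1 at 36.2 CPM, and for Ctla4, Lag3 and Havcr2 both treated points lie below both saline points, while those of Pdcd1 and Tigit overlap.

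Havcr2 was also lower per CPM of Ptprc, at 0.246 and 0.413 with saline and 0.137 and 0.187 after treatment, a ratio of 0.503, or -1.37 to -0.62 on the log2 scale with 1 library left out. Ptprc itself had a higher fitted level after treatment, which lowers such a ratio. Havcr2 stayed without overlap per summed macrophage and dendritic CPM, by -0.26 on the log2 scale. Macrophages and dendritic cells can carry TIM-3, and their list had 8 genes higher and 4 lower among 12 tested, and summed to 935.3 and 938.8 CPM with saline and to 879.7 and 790.3 CPM after treatment. Adgre1, a macrophage gene, was at 46.6 and 36.0 CPM against 55.8 and 35.3 CPM, and Itgax, found on dendritic cells and macrophages, at 38.8 and 11.7 CPM against 68.0 and 37.2 CPM, with overlapping groups in both. Mrc1, the macrophage mannose receptor gene, went the other way and, like Havcr2, had no overlap, at 212.5 and 396.1 against 137.2 and 154.3 CPM, a log2 fold change of -1.06. In every library Mrc1 and Csf1r were the largest terms of the summed macrophage and dendritic markers, the denominator also used for Cd274 and Vsir. Csf1r was at 306.2 and 158.8 CPM with saline and at 215.6 and 179.1 CPM after treatment. Mrc1 was named after its values were seen, and its adjusted p was 0.158 (edgeR quasi-likelihood test, Benjamini-Hochberg adjusted), or 0.0219 with the replicate block. With that block 7 genes of the list passed, 5 of them higher. Cd68, another macrophage gene also named after its values were seen, was higher without overlap. It was at 80.96 and 75.84 CPM with saline and at 96.49 and 108.5 CPM after treatment. The part of these cells in the Havcr2 values was not tested.

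Around the 10 genes, 5 lists of related genes held 81 genes, of which 73 were tested, 49 with higher and 24 with lower fitted levels after treatment. None passed the threshold, 8 had an unadjusted p under 0.05, where 21.2% of all tested genes did, and without cmLumiOpto/PARPi replicate 1 only 30 had higher levels. Of 13 tested genes for other coinhibitory receptors and their relatives, 12 were higher and 1 lower, with a median log2 fold change of 0.64, or 0.40 after correction for gene length and mean expression. Their groups did not overlap in 3, or 23.1%, all with the treated libraries above, beside 55.2% and 27.4% of all tested genes. The 3 were Pilra, an inhibitory receptor gene of myeloid cells (19.1 and 10.8 CPM with saline, 24.2 and 24.1 after treatment), Cd200r1, the receptor of CD200 (7.53 and 4.63 against 8.64 and 10.4 CPM), and Adora2a, an adenosine receptor gene (3.07 and 2.73 against 4.95 and 3.79 CPM). Their adjusted p was 0.254, 0.325 and 0.396 in the edgeR quasi-likelihood test, Benjamini-Hochberg adjusted.

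Costimulatory genes showed the same balance of signs, with 12 of 13 tested higher, a median log2 fold change of 0.59, or 0.38 after the same correction, and 6 of 13, or 46.2%, without overlap, all with the treated libraries above, beside 55.2% of all tested genes without overlap and 27.4% with the treated libraries above. Tnfrsf18, the gene for GITR, was at 1.25 and 1.02 CPM with saline and at 4.84 and 2.23 CPM after treatment, a log2 fold change of 1.63 (standard error 0.54). Cd48, a leukocyte adhesion and costimulatory gene, was at 9.53 and 5.93 against 21.1 and 12.2 CPM, a log2 fold change of 1.10 (standard error 0.38). Tnfrsf4, the gene for OX40, was at 1.25 and 0.886 against 2.42 and 1.93 CPM. Their adjusted p was 0.188, 0.195 and 0.288 by the same edgeR test with Benjamini-Hochberg adjustment. These genes are carried by lymphocytes and other leukocytes, and of the T cell markers all 14 also had higher fitted levels. The part of these cells was not tested.

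The list of binding partners holds ligands of the 10 genes, with Cd200, Cd47, Cd226 and Tnfrsf14 beside them. It had 10 of 13 tested genes higher and 3 lower, with a median log2 fold change of 0.34. Cd200, the ligand of CD200R1, was at 33.2 and 25.1 CPM with saline and at 51.4 and 33.8 CPM after treatment. Hmgb1, a chromatin protein that TIM-3 can bind, was at 82.3 and 84.3 against 74.6 and 77.7 CPM. These were the 2 genes of the list without overlap, 15.4% of it, beside 55.2% of all tested genes.

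Regulators of PD-L1 were the list with the largest share of separated genes among the 5. Among 19 tested, 8 were higher and 11 lower, with a median log2 fold change of -0.19, and the groups did not overlap in 12, or 63.2%, against 55.2% of all tested genes. The treated libraries were above in 2 of the 19 and below in 10, beside 27.4% and 27.8% of all tested genes. Stat3, a transcription factor downstream of IL-6, was at 321.3 and 355 CPM with saline and at 222.9 and 252.2 CPM after treatment, a log2 fold change of -0.51 (standard error 0.15). Jak1, a kinase of interferon and cytokine receptors, was at 207.6 and 218.9 against 158.4 and 156.1 CPM, a log2 fold change of -0.44 (standard error 0.13). Hif1a, the hypoxia-inducible factor, was at 224.8 and 300.6 against 166.8 and 193.2 CPM, a log2 fold change of -0.55 (standard error 0.19). Their adjusted p was 0.163, 0.164 and 0.196 in the edgeR quasi-likelihood test, Benjamini-Hochberg adjusted. Spop, an adaptor of the ligase that marks PD-L1 for degradation, was higher at 165 and 139.6 against 116.9 and 113.9 CPM with saline, and Ifngr2, a chain of the interferon gamma receptor, at 73.8 and 86.6 against 73.3 and 47.2 CPM. With correction for gene length and mean expression the median of this list was 0.07, and the values were -0.09 for Stat3, -0.12 for Jak1 and -0.27 for Hif1a. Cd274 itself had groups that overlapped, as given above.

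Genes of T cell exhaustion and regulatory T cells were split, with 7 of 15 higher and 8 lower and a median log2 fold change of -0.04. Batf, a transcription factor of effector and exhausted T cells, was at 5.08 and 3.68 CPM with saline and at 9.499 and 7.64 CPM after treatment, and Eomes, a factor of cytotoxic and exhausted cells, at 2.63 and 3.27 against 5.30 and 3.73 CPM. In the other direction Ikzf2, the gene for Helios, was at 11.1 and 14.6 against 9.10 and 6.44 CPM, and Nr4a2, a nuclear receptor induced by antigen receptor signals, at 6.15 and 5.32 against 5.18 and 3.01 CPM. These 4 genes, 26.7% of the list, were those without overlap, beside 55.2% of all tested genes, and none passed the threshold.

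**Figure D5:**
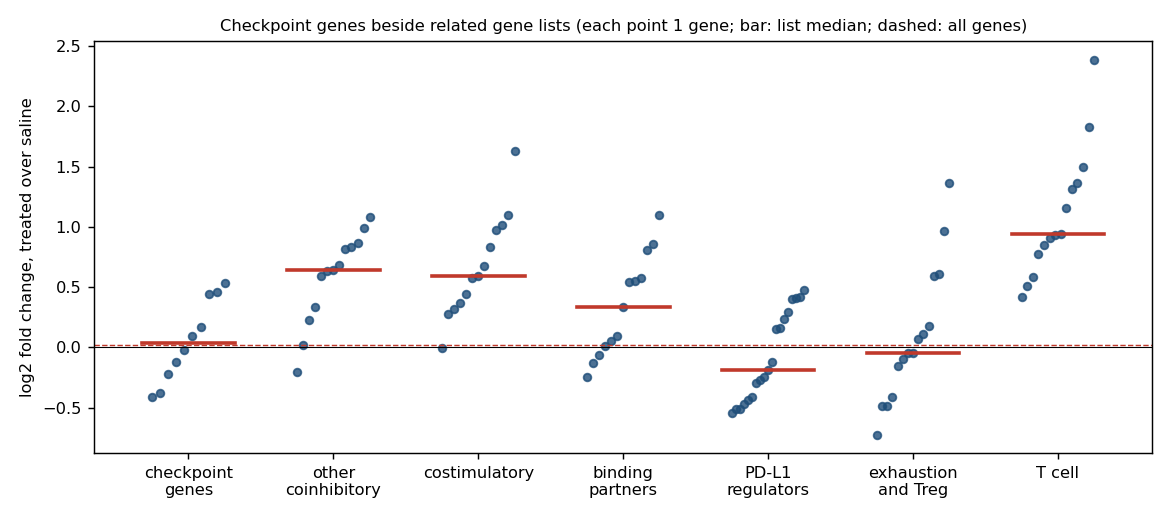
Log2 fold change of cmLumiOpto/PARPi over saline for each tested gene of the 10 checkpoint genes, the 5 related lists and the T cell markers, 1 point per gene, with the list median as a bar and the median of all tested genes (0.02) as a dashed line. The checkpoint genes centre on 0.04. Higher medians are those of other coinhibitory genes (0.64), costimulatory genes (0.59), binding partners (0.34) and T cell markers (0.94). Lower ones are those of PD-L1 regulators (-0.19) and of exhaustion and regulatory T cell genes (-0.04).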

How the data were processed

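The authors mapped the reads with HISAT2 and deposited unnormalized read counts per gene; the counting tool is not given in the sources used here. The submitters' notes name mm39 and the study's methods GRCm38. Of 52125 genes found by identifier in GENCODE M21 (GRCm38), 2.85% had the deposited position, so positions were kept as deposited, with the gene lengths of the table. Libraries of a group were not technical copies (chi-square per degree of freedom 25.2 for saline and 45.4 for cmLumiOpto/PARPi, above counting noise) and each counted as 1 replicate. Whether replicates are separate mice is not stated per library, so p-values measure only the spread between these libraries.

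From the counts, edgeR 4.0.16 in R 4.3.3 gave CPM (TMM), RPKM and the quasi-likelihood test (filterByExpr, minimum count 10, threshold 0.05, Benjamini-Hochberg adjustment over all 15167 genes), tested on simulated data. A standard error is the log2 fold change over the square root of F. Alternatives were DESeq2 1.42.0, other edgeR tests, normalizations and filters, a replicate block, a loess correction (span 0.5) for gene length and mean expression, and leaving out each library. The genes and lists were chosen with earlier results of these data known. Named were all 10 checkpoint genes, up to 3 genes per list and direction without overlap and with the smallest p, and cell type markers.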

Additional observations from a re-analysis of the deposited data

How the results depend on the processing

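None of the 10 checkpoint genes passed the threshold under any of the 16 alternatives. The count of all genes past it, 0 in the test reported, was 2000 with no filter on low counts, 981 with DESeq2, 815 with the exact test and 865 with the likelihood ratio test, and 0 to 31 with 1 library left out, and the cause was not tested. Sample numbers are shared by the groups, but the sources used here do not say whether same-numbered libraries shared a day or batch. Deviations of same-numbered libraries correlated across genes (Spearman's rho 0.298). With the replicate block 1822 genes passed, and 404 with the block and the loess correction. Under the block the Benjamini-Hochberg adjusted p of edgeR was 0.101 for Cd276 and 0.256 for Havcr2, and Cd48, Stat3 and Hif1a passed with 0.0271, 0.0423 and 0.0403, but not with block and loess (0.114, 0.662 and 0.254). With no filter Tnfrsf18, Cd48 and Hif1a passed, with 0.0402, 0.00804 and 0.0426. Upper quartile scaling moved the median log2 fold change of all genes from 0.02 to 0.13. Cd276 was between -0.48 and -0.27 and Havcr2 between -0.64 and -0.24 in all 16 alternatives. Pdcd1 also kept its sign in all 16, and the other 7 checkpoint genes and Hmgb1 did not. Cd274 was -0.0078 with block and loess and -0.28 to 0.37 with 1 library left out, Pdcd1lg2 was 0.23 with the block and -1.29 to 2.77 with 1 left out, and Vtcn1 was -0.27 to 1.52. Vsir was 0.085 with upper quartile scaling, 0.047 with totals, 0.16 with loess, 0.17 with block and loess, and -0.23 to 0.20 with 1 left out. Ctla4 was -0.22 with loess, -0.27 with block and loess and -0.51 to 0.61 with 1 left out, and Lag3 was -0.0066 with block and loess and -1.01 to 1.36. Tigit was -0.43 to 0.12 with 1 left out, and Hmgb1 was 0.012 with loess and 0.012 with block and loess. The genes of the 5 lists with higher levels numbered 30 to 54 with 1 library left out, the checkpoint genes without overlap 4 to 7, and the ratios without overlap numbered 5 of 10 with whole marker lists, 3 of the 8 run again and the 2 of Cd276 left as they were. Per Pdgfrb alone, an alternative chosen after seeing the data, the log2 difference of Cd276 was 0.30 in place of 0.85. Pdcd1lg2, Vtcn1 and Ctla4 had fewer than 100 counts in every library, so counting error adds most there, beside the spread between libraries.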
